A study of Homo sapiens with 9 samples.

Results

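The 41 genes described here encode the enzymes and carriers of central carbon metabolism: glycolysis, the lactate step, the pentose phosphate shunt, the entry of pyruvate into mitochondria and the tricarboxylic acid (TCA) cycle. They were taken by symbol from the 34830 gene rows of the count table, and all 41 have a row. RNA was sequenced from TC71 cells, a human Ewing sarcoma cell line, after growth in immunodeficient NSG mice. The line was grafted subcutaneously in Matrigel at the flank, and once tumours had grown the cancer cells were isolated by flow sorting: 4 libraries came from bone marrow, 4 from lung and 1 from the tumour at the graft site (primary). All 9 libraries share the same line, host strain and route, and no treatment, genotype or mouse age is named for any of them. The labels do not tie libraries to individual mice, so the spread between libraries of a site may include libraries of the same animal, and p-values measure only the spread between these libraries. TC71 comes from 1 patient's tumour, so the libraries describe 1 line and not Ewing sarcoma at large.

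Glycolysis converts glucose to pyruvate in the cytosol, with an upper part that uses ATP and a lower part that returns it. Pyruvate is either reduced to lactate and exported, or carried into mitochondria, where the pyruvate dehydrogenase complex turns it into acetyl-CoA for the TCA cycle. The pentose phosphate shunt branches from glucose 6-phosphate and supplies NADPH and ribose. Many glycolytic genes are known targets of the hypoxia-inducible factors and of MYC, and tumour cells often make lactate even where oxygen is present.

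Estimated counts after rounding were 14160000 to 17910000 in the bone marrow libraries, 11550000 to 13220000 in the lung and 12350000 in the primary. Reads assigned to human were 77.59% to 79.1% in the bone marrow and 72.67% to 77.34% in the lung. Reads that did not align were 18.9% to 20.3% in the bone marrow and 20.4% to 24.7% in the lung. The sites did not overlap in depth or in either share, so these cannot be told apart from site. Between 7.0% and 8.09% of reads were assigned to mouse, with no separation of the sites. The share of reads on protein-coding genes was 50.8% to 52.2% in bone marrow libraries 2 to 4, 45.5% in bone marrow library 1, 44.5% to 46.4% in the lung and 48.5% in the primary. The mitochondrial ribosomal share was 0.0956% to 0.218% in the bone marrow and 0.359% to 0.491% in the lung, so the sites did not overlap in it. All 10 Ewing sarcoma markers passed the low-count filter, and their summed level was 2842 to 4559 counts per 1000000 (CPM) in the bone marrow, 2846 to 3608 in the lung and 3511 in the primary. Summed CPM over 11 leukocyte markers was 1.04 to 7.77 in the bone marrow, 2.83 to 37.6 in the lung and 4.07 in the primary, with CSF1R at 0 throughout. Within that list 2 of the 4 tested genes did not overlap between the sites, in opposite directions. CD68, a lysosomal protein of macrophages, had 0 to 0.444 CPM in the bone marrow and 0.994 to 20.9 in the lung (DESeq2 adjusted p = 0.00345), and LYZ, lysozyme, had 0.587 to 1.53 against 0 to 0.563. Red cell markers (9 genes, ALAS2 and HBM at 0) summed to 16.6 to 100.1 CPM in the bone marrow, 3.63 to 161.6 in the lung and 8.44 in the primary. Lung epithelial markers (8 genes, SCGB1A1 at 0) summed to 21.3 to 88.0 CPM in the bone marrow and 16.6 to 130.2 in the lung, so the summed levels of these 3 lists overlapped between the sites. Host cells in these mice are murine and the rows are human genes, so these sums do not measure host cells. The part of other cells, mouse reads, depth and RNA composition in the results that follow was not tested.

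The 41 genes together took 1.10% of counts in bone marrow library 1, and 1.90%, 2.09% and 1.79% in bone marrow libraries 2, 3 and 4. They took 1.31%, 1.25%, 1.15% and 1.22% in lung libraries 1 to 4 and 1.53% in the primary. Library 1 of the bone marrow was thus below the whole lung group, and libraries 2 to 4 were above both the lung group and the primary. Library 1 was the lowest of the 4 bone marrow libraries for 28 of 39 tested genes, against 29.6% of all genes tested, and it enters each bone marrow value below unless stated.

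In the bone marrow the mean levels of ALDOA, GAPDH, PGK1, ENO1, PKM and IDH1 were 1.70 to 2.97 times those in the lung, and that of CS was 6.5 times the lung level. LDHA and PDHB, at the lactate step and at pyruvate dehydrogenase, stood at 1.07 and 1.02 times. Of the 41 genes 39 passed the filter on low counts, and 32 of those 39 had a higher fitted level in the bone marrow, against 49.9% of all 17042 genes tested. Their median log2 fold change, bone marrow minus lung, was 0.41, beside 0.00 over all genes tested. No gene of the 39 passed an adjusted p of 0.05 in edgeR's quasi-likelihood test, where 1 gene in all (0.00587%) did. At an unadjusted p under 0.05, 13 of the 39 were higher in the bone marrow and 0 were higher in the lung, beside 6.33% and 3.88% of all genes. Without bone marrow library 3 the 13 became 8, and without library 1 they became 17. DESeq2 with adjustment called 3 of 37 genes with an adjusted p, all higher in the bone marrow (PKM, IDH1 and CS), beside 2.16% of genes called higher in the bone marrow and 1.22% called higher in the lung. On simulated counts with the same high spread for every gene, DESeq2 made more false than true calls. Its adjusted p-values here and elsewhere carry that limit. limma voom with sample weights called none, with a smallest adjusted p of 0.121. The 4 bone marrow libraries lay above all 4 lung libraries for 6 genes (ALDOC, GAPDH, ENO1, PKM, CS, IDH1) and below them for 1 (OGDH), beside 2.82% and 3.06% of all genes. Without bone marrow library 1, 16 genes lay above and 1 below, beside 6.86% and 6.91% of all genes in that fit. PKM, CS and ALDOC stayed without overlap under every scaling run, whereas ENO1 and GAPDH overlapped by library size alone and ENO1 and IDH1 with offsets for GC content and length. Below the lung, OGDH overlapped with those offsets and SUCLG1 took its place, and by library size alone both genes lay below. The remaining values in this section are therefore differences that edgeR did not call after adjustment. Because these are bulk libraries, less RNA per cell and fewer cells carrying it cannot be told apart.

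**Figure D1:**
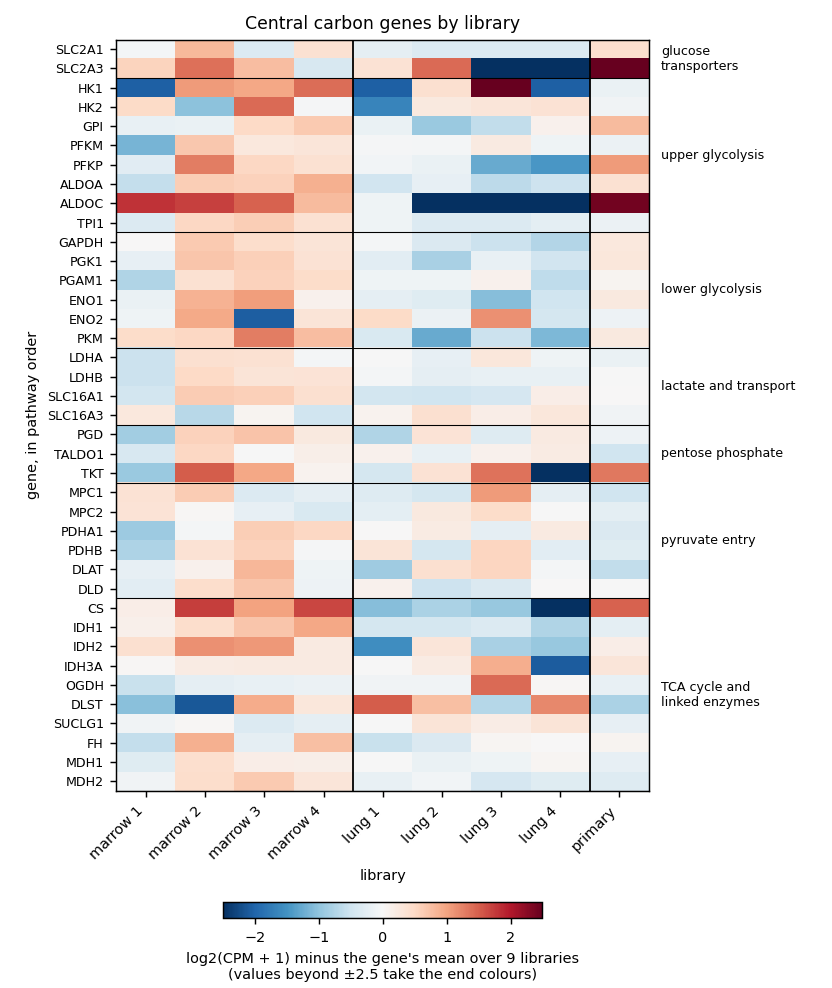
Level of each of the 39 tested genes (rows, in pathway order) in each of the 9 libraries (columns), as log2(CPM + 1) minus the gene's own mean over the libraries, with red above and blue below that mean. Bone marrow libraries 2 to 4 are red for most glycolytic rows, bone marrow library 1 is pale or blue for many of them, and lung libraries are mostly pale or blue there.

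**Figure D2:**
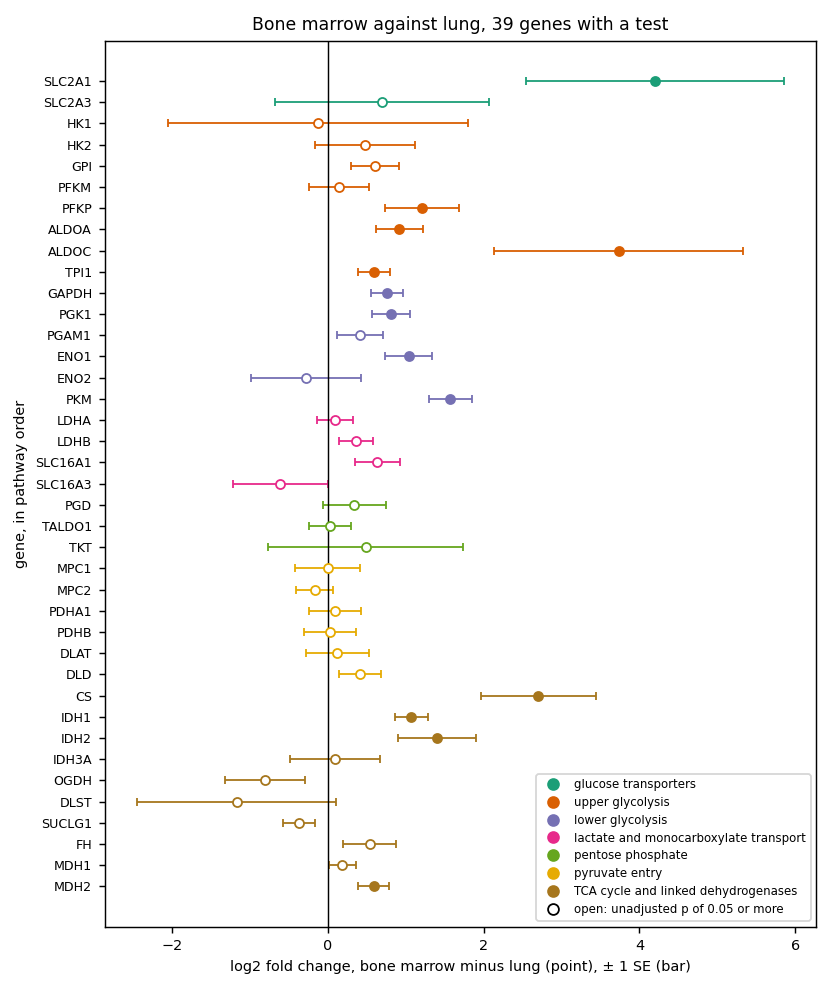
Log2 fold change of bone marrow minus lung (point) with its standard error from edgeR's quasi-likelihood fit (bar) for the 39 tested genes, coloured by branch, filled where the unadjusted p is under 0.05. The 13 filled points are all to the right of 0, and the lactate, pentose phosphate and pyruvate entry branches have none.

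Levels differed over several orders along the pathway. Per kilobase of transcript the highest mean over the 8 metastasis libraries was that of TPI1, triose phosphate isomerase, at 1997 CPM per kb in the bone marrow and 1322 in the lung. LDHB, ENO1, LDHA, MDH1, GAPDH and ALDOA followed in that order. At the other end PC, pyruvate carboxylase, reached at most 9 counts. PFKL, the liver-type phosphofructokinase, was listed at 0 in all 9 libraries. The sources used here do not say whether the counting index held its transcripts, so PFKL is not placed in this order. SLC2A1, SLC16A3 and PC stayed under 5 CPM in every library, as did PFKL. The transcripts of these 4 genes had a median GC content of 62.6% against 51.2% for the other 37. By gene it was 64.4% for SLC16A3, 63.5% for PFKL, 61.7% for PC and 54.8% for SLC2A1. The value for SLC2A1 was below those of ALDOA (60.1%), PKM (58.6%) and GAPDH (57.3%), which had far higher levels. Over all 41 genes, with PFKL entered at 0, the rank correlation of mean level per kb with GC content was -0.29 (Spearman). The genes share libraries and are not independent, and the correlation was not computed without PFKL. Whether the library kit lowers transcripts of high GC content was not tested.

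**Figure D3:**
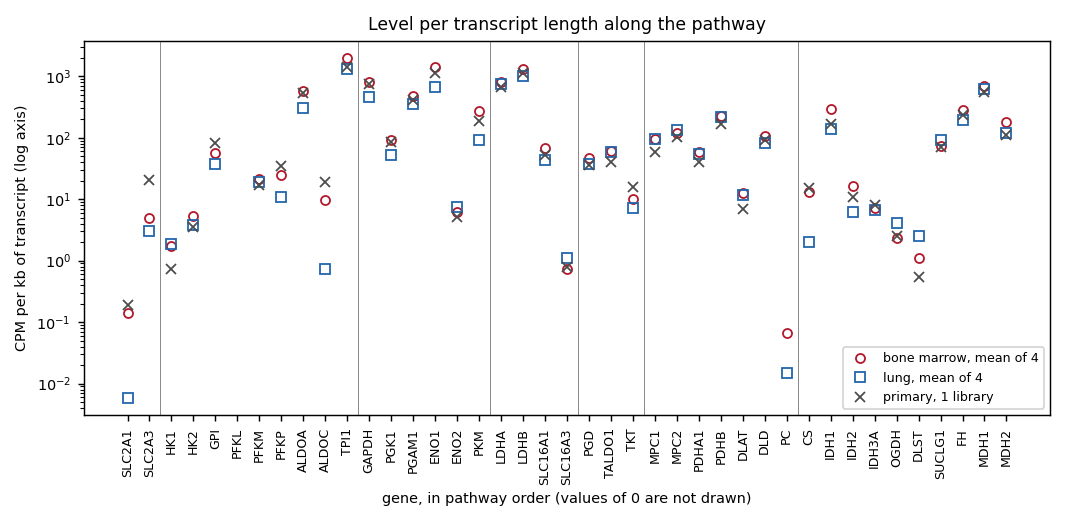
Mean CPM per kilobase of transcript (log axis) for each gene in pathway order in the bone marrow, lung and primary, without the values of 0. Levels run from under 0.1 for SLC2A1 in the lung to 1997 for TPI1 in the bone marrow, and the gaps between sites are small beside the gaps between genes.

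Glucose enters through the SLC2A carriers, and both listed carriers were low. SLC2A1 (GLUT1, the broadly expressed glucose transporter) had 0.222, 1.22, 0 and 0.652 CPM in bone marrow libraries 1 to 4, 0.0848 CPM in lung library 1 and 0 in the other 3 lung libraries. Its fitted log2 fold change of 4.20 ± 1.66 (SE; edgeR quasi-likelihood unadjusted p = 0.0321, adjusted p = 0.475) rests on at most 20 counts in a library. SLC2A3 (GLUT3, a high-affinity carrier) had 17.6, 31.9, 20.5 and 8.54 CPM in the bone marrow and 15.2, 32.7, 0 and 0.508 in the lung. Lung libraries 3 and 4 were thus nearly without it, lung library 2 was the highest of the 8, and the sites overlapped (log2 fold change 0.70 ± 1.37). In the primary it stood at 80.8 CPM, above all 8 metastasis libraries. SLC2A14, a near-identical copy with its own row, stayed at 2.29 CPM or less, and reads of the pair may be split between them.

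In upper glycolysis the fitted level was higher in the bone marrow for 7 of 8 tested genes (branch median 0.60 in log2), and 4 of the 8 (PFKP, ALDOA, ALDOC, TPI1) were at an unadjusted p under 0.05. The hexokinases, which trap glucose in the cell, showed no common direction: HK1 had 0, 7.63, 7.09 and 9.91 CPM in the bone marrow and 0, 4.44, 22.4 and 0 in the lung. HK2, the inducible form, averaged 30.6 ± 21.2 CPM (SD, n = 4) in the bone marrow and 21.9 ± 10.5 (n = 4) in the lung. GPI, which converts glucose 6-phosphate to fructose 6-phosphate, had 130.3, 132, 210.2 and 233 CPM in the bone marrow and 131, 77.3, 96 and 159 in the lung. Its primary value of 257 CPM exceeded every metastasis library, and its sites overlapped (log2 fold change 0.61 ± 0.31, edgeR unadjusted p = 0.0831).

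The committed step is made by phosphofructokinase, and its isoforms differed in pattern. PFKP, the platelet isoform, had 35.9, 107, 63.2 and 57.3 CPM in the bone marrow, 41.7, 38.8, 17.6 and 15.3 in the lung and 93.1 in the primary. Lung libraries 1 and 2 lay above bone marrow library 1, and the other 3 bone marrow libraries lay above all of the lung (log2 fold change 1.22 ± 0.47, edgeR unadjusted p = 0.0304, adjusted p = 0.475). PFKM, the muscle isoform, averaged 62.3 ± 27.2 CPM (SD, n = 4) in the bone marrow and 56.3 ± 5.88 (n = 4) in the lung. The ratio of PFKP to PFKM was 0.831 to 1.47 in the bone marrow, 0.272 to 0.766 in the lung and 1.85 in the primary, so the sites did not overlap in this ratio, which was looked at after the values were seen.

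The aldolases split the 6-carbon sugar. ALDOA, the main form in most tissues, had 419.5, 976, 946 and 1185 CPM in the bone marrow and 460.1, 554, 403 and 446 in the lung, with 832 in the primary. Bone marrow library 1 lay inside the lung range and the other 3 lay well above it (log2 fold change 0.92 ± 0.30, edgeR unadjusted p = 0.0125, adjusted p = 0.427). ALDOC, the brain-type aldolase (chr17:28573115-28577264, GRCh38), had 22.9, 21.2, 18 and 10.8 CPM in the bone marrow. In the lung it had 5.34, 0.141, 0 and 0 CPM, and in the primary 35.4, the highest of all. The sites did not overlap, and the ratio of mean levels was 13.3, while the edgeR unadjusted p was 0.0446 (log2 fold change 3.73 ± 1.60, adjusted p = 0.486). That p stayed under 0.05 without lung library 1 but not when any other metastasis library was left out. TPI1 had 1531, 2774, 2990.4 and 2538 CPM in the bone marrow and 1802, 1523, 1536 and 1649 in the lung, so only libraries 2 to 4 of the bone marrow cleared the lung range. Its log2 fold change was 0.60 ± 0.21 (edgeR unadjusted p = 0.0183, adjusted p = 0.443).

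In lower glycolysis 5 of 6 genes had a higher fitted level in the bone marrow, 4 of them (GAPDH, PGK1, ENO1, PKM) at an unadjusted p under 0.05, and 3 (GAPDH, ENO1, PKM) without overlap. The median log2 fold change of the branch was 0.79. GAPDH, which oxidises glyceraldehyde 3-phosphate (chr12:6533927-6538374), had 830.5, 1300.0, 1118 and 1033 CPM in the bone marrow, 804, 642, 571 and 499.5 in the lung and 995 in the primary. Its lowest bone marrow library was just above its highest lung library (log2 fold change 0.77 ± 0.20, edgeR unadjusted p = 0.00462, adjusted p = 0.355). PGK1, the first ATP-yielding kinase of the pathway, had 296, 553, 516 and 439.5 CPM in the bone marrow, 286, 195, 301 and 244 in the lung and 418 in the primary. Bone marrow library 1 and lung library 3 crossed by a few CPM, and the other libraries kept the sites apart (log2 fold change 0.81 ± 0.24, edgeR unadjusted p = 0.00880, adjusted p = 0.402).

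ENO1, the main enolase (chr1:8861000-8879250), had 1738, 3565, 4035 and 2109 CPM in the bone marrow, 1676, 1580.0, 933 and 1377 in the lung and 2322 in the primary. The sites did not overlap, with bone marrow libraries 2 and 3 far above the other 2 (log2 fold change 1.04 ± 0.30, edgeR unadjusted p = 0.00736, adjusted p = 0.382). PKM, pyruvate kinase of muscle and tumours (chr15:72199029-72231822), had 587, 607, 1033 and 727 CPM in the bone marrow and 327, 178, 294 and 194 in the lung. All 4 bone marrow libraries stood above all 4 lung libraries by a clear gap, and the primary, at 502 CPM, lay in that gap. PKM had the smallest p of the 39 genes (log2 fold change 1.57 ± 0.28, a ratio of means of 2.97, edgeR unadjusted p = 0.000311, adjusted p = 0.241, DESeq2 adjusted p = 0.000401). PGAM1, phosphoglycerate mutase, sits between PGK1 and the enolases and differed less on average (log2 fold change 0.41 ± 0.29). It was at 867 ± 295 CPM (SD, n = 4) in the bone marrow against 652 ± 132 (n = 4) in the lung. Bone marrow library 1 (432 CPM) lay below the lung range of 470 to 786, and libraries 2 to 4 (947 to 1081) lay above it. Without bone marrow library 1 the edgeR unadjusted p of PGAM1 was under 0.05. ENO2, the neuronal enolase, was low and uneven, at 2.71 to 29.1 CPM in the bone marrow and 10.5 to 33.1 in the lung.

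**Figure D4:**
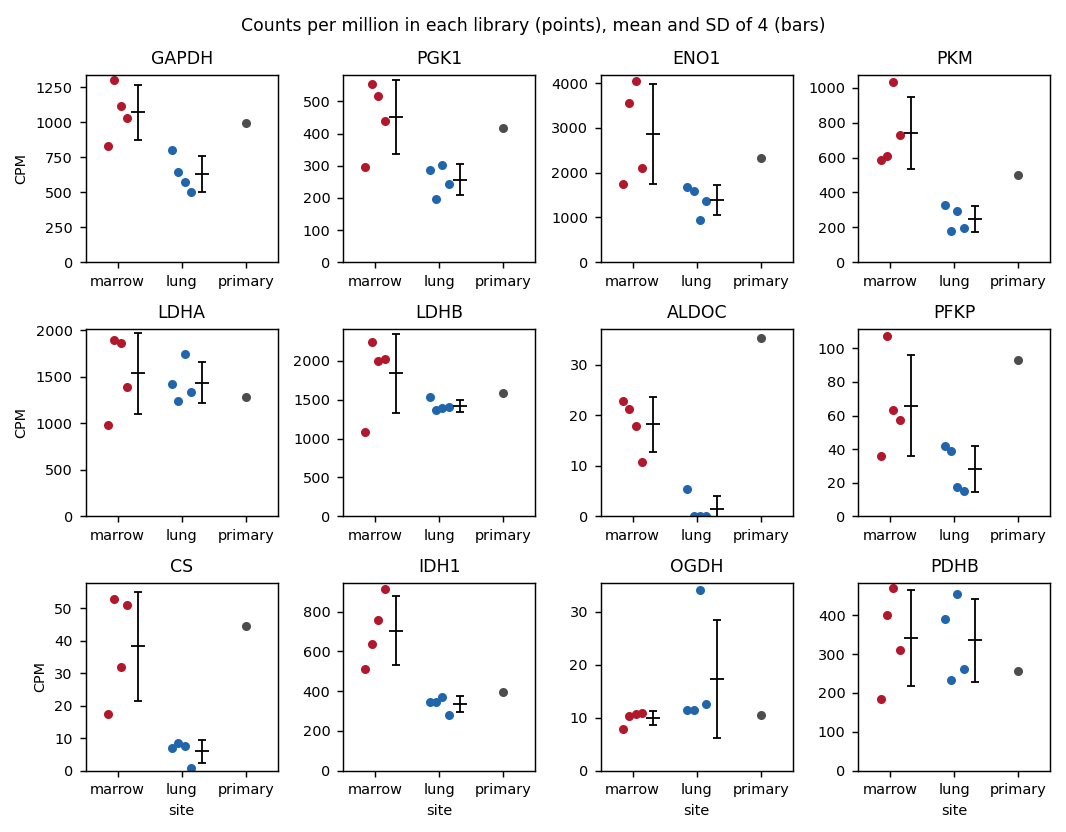
CPM in each library (points) with the mean and SD of 4 libraries (bars) for 12 genes at the bone marrow, lung and primary, each on its own axis from 0. PKM, ENO1, GAPDH, ALDOC, CS and IDH1 have all bone marrow points above all lung points, while LDHA, LDHB and PDHB overlap.

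The lactate step, 1 enzyme after PKM, did not show the same gap. LDHA, the subunit tied to lactate production, had 989, 1897, 1871 and 1396 CPM in the bone marrow, 1429, 1245, 1749 and 1339 in the lung and 1288 in the primary. The 2 sites were interleaved, and the log2 fold change was 0.09 ± 0.23. LDHB, the subunit of oxidative tissues, averaged 1836 ± 511 CPM (SD, n = 4) in the bone marrow and 1422 ± 77.2 (n = 4) in the lung. Bone marrow library 1 (1088 CPM) lay below the lung range of 1363 to 1536, and libraries 2 to 4 (1990 to 2245) lay above it. The log2 fold change was 0.37 ± 0.22 (edgeR unadjusted p = 0.124). Without bone marrow library 1 the edgeR unadjusted p of LDHB was under 0.05, and that of LDHA was not. The LDHA to LDHB ratio was 0.691 to 0.940 in the bone marrow, 0.914 to 1.26 in the lung and 0.815 in the primary. The PKM to LDHA ratio, looked at after the values were seen, was 0.594, 0.320, 0.552 and 0.521 in the bone marrow, 0.229, 0.143, 0.168 and 0.145 in the lung and 0.390 in the primary, without overlap between the sites and with bone marrow library 1 the highest. The ENO1 to LDHA ratio, also looked at after the values were seen, was 1.51 to 2.16 in the bone marrow and 0.534 to 1.27 in the lung. SLC16A1 (MCT1, which moves lactate and pyruvate across the membrane) had 158, 338, 327 and 286 CPM in the bone marrow and 156, 153, 162 and 242 in the lung. Lung library 4 and bone marrow library 1 crossed, and the log2 fold change was 0.64 ± 0.29 (edgeR unadjusted p = 0.0536, adjusted p = 0.486). Without bone marrow library 1 the sites did not overlap in SLC16A1, and its edgeR unadjusted p was under 0.05. SLC16A3 (MCT4, the lactate exporter of glycolytic cells) stayed between 0.732 and 2.68 CPM.

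Hypoxia-inducible factors bind short sites that include ACGTG, and MYC family proteins bind CACGTG, which contains it. Only these letters were searched, and other forms such as GCGTG were not. RefSeq promoters (GRCh38.p14) were found for 38 of the 41 genes, and the 250 bases before the start were searched on both strands for the letters ACGTG, with overlapping matches merged. Counted by gene, with a match in any of its promoters, the letters were present in 17 of 38 genes (44.7%) and in 21.7% of 27305 genes, and CACGTG in 6 of 38 (15.8%) and 7.73%. Many genes have several listed promoters, and the 38 have 69 in all. Counted by promoter, ACGTG was in 20 of 69 (28.99%) and in 18.5% of 35116, and CACGTG in 6 of 69 (8.696%) and 6.34%, so the gap to the background was smaller. Of 16 tested genes with ACGTG in the window 7 were at an unadjusted p under 0.05 for higher bone marrow, and of 20 tested genes without it 6 were. PKM, ENO1 and CS have no ACGTG in this window, which says only that the letters are not there. The following exon-free stretches, with ACGTG or CACGTG of either strand in capitals, are shown because GAPDH and PGK1 were higher in the bone marrow at an unadjusted p under 0.05 while LDHA and PDHB, which hold the same letters, had log2 fold changes of 0.09 and 0.03. The LDHA window holds 3 ACGTG matches, 2 of them CACGTG, and the stretch printed before its exon begins shows 1 of the 3.
GAPDH, chr12:6535142-6535263, plus strand: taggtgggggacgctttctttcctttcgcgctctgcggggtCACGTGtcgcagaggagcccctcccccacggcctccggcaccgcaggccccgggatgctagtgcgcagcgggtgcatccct
PGK1, chrX:78103998-78104173, plus strand: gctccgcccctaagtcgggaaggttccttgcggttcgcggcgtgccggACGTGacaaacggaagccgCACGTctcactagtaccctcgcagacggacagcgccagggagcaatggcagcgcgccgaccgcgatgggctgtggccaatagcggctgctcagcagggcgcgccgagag
LDHA, chr11:18394313-18394387, plus strand: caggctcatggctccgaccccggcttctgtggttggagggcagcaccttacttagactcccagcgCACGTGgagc
PDHB, chr3:58433858-58434082, minus strand: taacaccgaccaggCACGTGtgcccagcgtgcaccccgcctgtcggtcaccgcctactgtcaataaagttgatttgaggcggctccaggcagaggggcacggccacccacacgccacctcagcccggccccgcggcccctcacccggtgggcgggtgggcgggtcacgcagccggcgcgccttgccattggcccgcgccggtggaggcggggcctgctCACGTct

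The pentose phosphate genes did not separate the sites. PGD, the second dehydrogenase of the oxidative arm, had 39.5, 109, 119 and 86.2 CPM in the bone marrow and 42.7, 93.4, 58.0 and 85.3 in the lung (log2 fold change 0.34 ± 0.40). It had the smallest p of the 3 genes of the branch, at 0.417 (edgeR, unadjusted). TALDO1, transaldolase of the non-oxidative arm, averaged 80.7 ± 21.2 CPM (SD, n = 4) in the bone marrow and 79.3 ± 9.01 (n = 4) in the lung, and its primary value of 53.4 was below all 8. TKT, transketolase, ran from 9.03 to 53.6 CPM in the bone marrow and from 0 to 47.9 in the lung, and the SD within each site (19.6 and 20.3) exceeded the gap between the means (29.5 and 21.1).

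Pyruvate entry showed no clear difference between the sites. Of 6 tested genes 5 had a higher fitted value in the bone marrow, with a branch median log2 fold change of 0.06 and none at an unadjusted p under 0.05. With offsets for GC content and length, where the median of all genes moved to -0.15, the fitted differences of MPC1, PDHA1, PDHB and DLAT turned negative, as did that of LDHA. MPC1 and MPC2 form the mitochondrial pyruvate carrier. MPC1 had 105, 126, 63.5 and 68.9 CPM in the bone marrow, 64.3, 59.8, 169.7 and 69.1 in the lung and 56.8 in the primary, which was below all 8 metastasis libraries. Its highest value came from lung library 3. MPC2 averaged 175 ± 38.6 CPM (SD, n = 4) in the bone marrow and 197 ± 41 (n = 4) in the lung. PDHA1 and PDHB, the 2 subunits of the decarboxylase of the pyruvate dehydrogenase complex, had log2 fold changes of 0.10 ± 0.33 and 0.03 ± 0.33. DLAT, its acetyltransferase, had 0.12 ± 0.40. DLD, the dehydrogenase shared with the 2-oxoglutarate complex, had the smallest p of the branch (286, 466, 556 and 314 CPM in the bone marrow, 369, 238, 267 and 345 in the lung, edgeR unadjusted p = 0.154). The PKM to PDHA1 ratio, also looked at after the values were seen, was 2.92 to 6.46 in the bone marrow and 0.900 to 2.01 in the lung, without overlap. It was 3.77 in the primary. PDHA1 differed little between the sites, so this ratio mostly restates PKM. Of the ratios not printed, PKM to PGAM1 did not overlap either. HK2 to HK1 (where HK1 had counts), ENO1 to ENO2, IDH1 to IDH2 and MDH1 to MDH2 overlapped.

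In the TCA cycle and its linked dehydrogenases 7 of 10 genes were higher in the bone marrow, and 4 (CS, IDH1, IDH2, MDH2) were at an unadjusted p under 0.05. CS, citrate synthase, which condenses acetyl-CoA with oxaloacetate (chr12:56271699-56300392), had 17.4, 53.0, 31.9 and 51.0 CPM in the bone marrow, 6.87, 8.52, 7.45 and 0.726 in the lung and 44.6 in the primary. Its lung libraries were all below its bone marrow libraries and the primary (log2 fold change 2.70 ± 0.74, edgeR unadjusted p = 0.00521, adjusted p = 0.362, DESeq2 adjusted p = 0.00628). IDH1, the NADP-dependent isocitrate dehydrogenase of the cytosol (chr2:208236227-208266074), had 509, 635, 759 and 913 CPM in the bone marrow, 344, 346, 372 and 278 in the lung and 396 in the primary. The sites did not overlap, with the primary between them but nearer the lung (log2 fold change 1.07 ± 0.21, edgeR unadjusted p = 0.000728, adjusted p = 0.299, DESeq2 adjusted p = 0.00328). IDH2, its mitochondrial counterpart, had 34.4, 58.6, 55.9 and 30.4 CPM in the bone marrow and 8.23, 32.2, 14.3 and 13.1 in the lung. Lung library 2 exceeded bone marrow library 4, and the other libraries kept apart (log2 fold change 1.40 ± 0.50, edgeR unadjusted p = 0.0205, adjusted p = 0.447).

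MDH2, the mitochondrial malate dehydrogenase, had 293, 422, 488 and 385 CPM in the bone marrow, 274, 297, 233 and 252 in the lung and 248 in the primary (log2 fold change 0.59 ± 0.20, edgeR unadjusted p = 0.0177, adjusted p = 0.441). MDH1, its cytosolic form, differed by 0.19 ± 0.18 in log2. OGDH, the first subunit of the 2-oxoglutarate dehydrogenase complex (chr7:44606572-44709066), was the sole gene with its whole bone marrow group below the lung: 7.92, 10.3, 10.6 and 10.8 CPM against 11.4, 11.4, 34.1 and 12.5. Apart from lung library 3 the gap was under 5 CPM, and the edgeR unadjusted p was 0.153 (log2 fold change -0.81 ± 0.52). SUCLG1, a subunit of succinyl-CoA ligase, was 107 ± 12.1 CPM (SD, n = 4) in the bone marrow and 138 ± 14.2 (n = 4) in the lung (log2 fold change -0.37 ± 0.20). FH, fumarase, was 509.8 ± 239.5 CPM (SD, n = 4) against 351 ± 70.0 (n = 4). IDH3A, the NAD-dependent isocitrate dehydrogenase subunit, was 26.9 to 31.1 CPM in the bone marrow and 5.45 to 50.2 in the lung. DLST, the succinyltransferase of the same complex as OGDH, stayed at 11.5 CPM or less in every library. It ran from 0 to 7.30 CPM in the bone marrow and from 1.66 to 11.5 in the lung, with overlap. Its fitted level was lower in the bone marrow with a wide error (log2 fold change -1.17 ± 1.28, edgeR unadjusted p = 0.384).

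**Figure D5:**
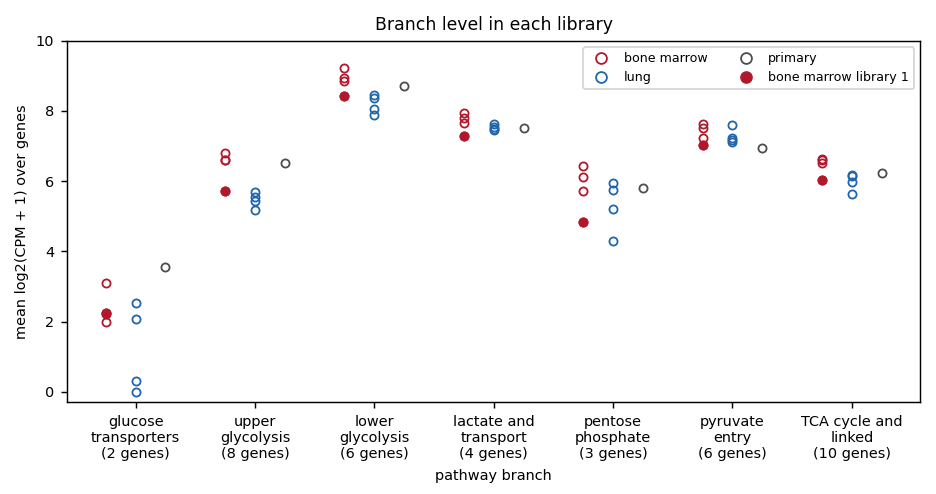
Mean log2(CPM + 1) over the tested genes of each branch in each library, with bone marrow library 1 filled. In upper glycolysis the lowest bone marrow point (library 1, 5.72) is narrowly above the highest lung point (library 3, 5.68). ALDOC had 22.9 CPM in the first of these libraries and 0 in the second. By summed CPM of that branch, bone marrow library 1 (2195) falls within the lung libraries (2167 to 2501). In lower glycolysis bone marrow library 1 (8.41) falls within the lung points, and pyruvate entry overlaps.

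The primary library was set against the metastases with 1 library on its side, so no spread of its own is known, and the comparisons share it. The spread in these fits comes from the 8 metastasis libraries alone, and a p-value below says where this 1 library lies against that spread, not that the primary site differs. edgeR called 0 genes of the 39 after adjustment for metastases versus primary, bone marrow versus primary and lung versus primary, where 0% of all genes were called in each. For metastases versus primary 0 of the 39 were at an unadjusted p under 0.05, beside 1.75% of all genes higher in the metastases and 3.04% higher in the primary, and DESeq2 called 0, beside 0.576% and 0.14%. At an unadjusted p under 0.05, for bone marrow versus primary 1 gene, IDH1, was fitted higher in the bone marrow (log2 fold change 0.83 ± 0.35, edgeR unadjusted p = 0.0440) and 0 were fitted higher in the primary, beside 1.54% and 2.26% of all genes. For lung versus primary 6 genes (SLC2A1, GPI, PFKP, ALDOC, PKM, CS) were fitted higher in the primary library and 0 in the lung, beside 4.12% and 2.33%. The smallest p of these was that of CS, at a log2 fold change of -2.92 ± 0.95 (edgeR unadjusted p = 0.0134, adjusted p = 0.694). The primary lay above all 8 metastasis libraries for 3 of the 39 genes (SLC2A3, GPI, ALDOC) and below all 8 for 2 (TALDO1, MPC1), beside 10.1% and 7.56% of all genes. The median log2 fold change of the 39 genes was 0.26 for bone marrow minus primary and -0.15 for lung minus primary, beside 0.17 and 0.16 over all genes.

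Of 71 other genes of the same pathways 60 were tested. Of these, 7 were higher in the bone marrow and 3 higher in the lung at an unadjusted p under 0.05, beside 6.33% and 3.88% of all genes (11.7% of the 60 for the bone marrow). edgeR called 0 after adjustment, and the median log2 fold change was 0.51, beside 0.00 over all genes. Those at an unadjusted p under 0.05 without overlap were PRPS1, PDK1 and SUCLG2 above and PGAM5, PDP2 and GLUD1 below. PDK1, the kinase that shuts down pyruvate dehydrogenase and a hypoxia target, had 84.1, 190.3, 123 and 81.3 CPM in the bone marrow, 31.2, 33.8, 16.6 and 40.5 in the lung and 132 in the primary (log2 fold change 1.97 ± 0.40, edgeR unadjusted p = 0.000759, DESeq2 adjusted p = 0.000541). PDP2, a phosphatase that reactivates the complex, had 11.8, 3.84, 12.9 and 17.7 CPM in the bone marrow and 40.8, 25.3, 25.6 and 27.7 in the lung (log2 fold change -1.37 ± 0.52, edgeR unadjusted p = 0.0269, DESeq2 adjusted p = 0.103). This kinase and this phosphatase thus lay on opposite sides. The other kinases PDK2 and PDK3 and the other phosphatase PDP1 overlapped between the sites (log2 fold changes 2.16 ± 1.75, 0.62 ± 1.38 and -0.87 ± 0.67). PDHX, a structural subunit of the complex, overlapped as well (0.94 ± 0.40, edgeR unadjusted p = 0.0424), and PDK4 stayed at 0.652 CPM or less.

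PRPS1, which makes phosphoribosyl pyrophosphate from the ribose of the shunt, had 170.0, 325, 248 and 240.2 CPM in the bone marrow and 92.0, 132, 82.8 and 83.5 in the lung (log2 fold change 1.33 ± 0.27, edgeR unadjusted p = 0.000773, DESeq2 adjusted p = 0.00147). SUCLG2, the GDP-forming partner of SUCLG1, had 102, 166, 140.1 and 71.8 CPM in the bone marrow and 56.3, 34.4, 51.3 and 52.0 in the lung (log2 fold change 1.31 ± 0.32, DESeq2 adjusted p = 0.0122). Its direction was opposite to that of SUCLG1. GLUD1, which feeds glutamate into the cycle as 2-oxoglutarate, had 34.3, 94.2, 59.6 and 69.6 CPM in the bone marrow and 106, 102, 114 and 121 in the lung (log2 fold change -0.78 ± 0.32, edgeR unadjusted p = 0.0375). PGAM5, a mitochondrial phosphatase named for its likeness to the mutases, was 31.2 ± 6.75 CPM (SD, n = 4) in the bone marrow and 60.1 ± 12.8 (n = 4) in the lung (DESeq2 adjusted p = 0.0321).

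Of 15 hypoxia-inducible genes outside the 41, 14 were tested and 6 (BNIP3, BNIP3L, LOX, P4HA1, KDM3A, PDK1) were higher in the bone marrow at an unadjusted p under 0.05, with 0 higher in the lung, beside 6.33% and 3.88% of all genes. The fitted level was higher in the lung for 4 of the 14, ADM (log2 fold change -1.78), VEGFA (-1.49), PFKFB3 (-0.46) and EGLN3 (-0.19), all overlapping between the sites. Their summed level was 787 to 1326 CPM in the bone marrow, 382 to 573 in the lung and 1185 in the primary, without overlap between the sites. BNIP3, BNIP3L, P4HA1 and PDK1 made up 80.1% to 93.3% of that sum in each library, and the sum of the other genes was 77.6 to 148 CPM in the bone marrow and 27.5 to 96.8 in the lung, with overlap. BNIP3 had 197, 387, 365 and 331 CPM in the bone marrow, 149, 42.4, 114 and 110.0 in the lung and 429 in the primary. Among 4 proliferation markers 3 had a higher fitted level in the bone marrow and 1 a lower one (log2 fold change -0.26). Only TOP2A was at an unadjusted p under 0.05 (log2 fold change 1.37, edgeR unadjusted p = 0.00173), beside 6.33% of all genes higher in the bone marrow. The summed level of the 4 overlapped between the sites, at 642 to 820 CPM in the bone marrow and 380 to 837 in the lung. The part of either list in the differences above was not tested.

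Several of these genes have processed pseudogenes in the human genome (GAPDH, PGK1, ENO1, LDHA, LDHB, TPI1, PKM and PGAM1 among them). The table has 0 numbered pseudogene rows for the 41 genes, so reads from such copies could not be separated from their parents.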

How the data were processed

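RNA libraries had been made with a template-switching low-input kit, per the labels' protocols. Estimated counts per gene were deposited as one table, with fractional values; Trim Galore, Salmon and hg38 are named, without versions or roles, in the submitters' processing notes. The quality table gives, per the file headers, a percent of reads per organism and a fraction of reads per feature class; the authors' method for these is not stated. Estimated counts were rounded to whole numbers, and 12 vector rows and 92 spike-in rows (at most 0.0159% of counts) were left out of 34934.

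All 9 libraries and 17042 genes passing filterByExpr were fitted together with edgeR 4.0.16 (R 4.3.3; TMM scaling, quasi-likelihood test, Benjamini-Hochberg adjustment over all genes, threshold 0.05), with one coefficient per site. CPM values use the TMM library sizes. The standard error is the fold change divided by the square root of the F statistic. DESeq2 1.42.0 and limma 3.58.1 voom with quality weights were alternatives, as were other scalings, filters and library sets. The biological coefficient of variation was 0.925. The fits were tested on simulated data in which every gene had the same spread. At a low spread all 3 tools recovered the changed genes. With the coefficient of 0.925 given to every gene, edgeR and limma voom called none of them and DESeq2 made more false than true calls. Genes differ in spread in the real data, so this does not show what the tools can call for genes with a smaller spread. Every one of the 36 library pairs differed by far more than counting error (chi-square over its degrees of freedom, 78.7 or higher). Transcript length and GC content are medians over principal transcripts of GENCODE (GRCh38), and gene positions come from the same annotation.

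The 41 genes and all lists were chosen with earlier results of these data known. Full library values were given for genes without overlap between the sites, at an unadjusted p under 0.05, called by DESeq2, with the smallest p of a branch, or with the primary beyond all 8 metastasis libraries.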

Additional observations from a re-analysis of the deposited data

Results flagged for a closer look

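Within each site, the highest or lowest of the 4 libraries was compared with its nearest neighbour relative to the site's range, for each of the 39 tested genes. Of 78 such groups, 7 (8.97%) held a library beyond Dixon's 95% critical value, where chance alone gives about 5%.

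One of the 7 rests on a single count: SLC2A1 had 1 count in lung library 1 (0.0848 CPM) and 0 in the other lung libraries, and any single count gives this result. Lung library 1 also stood apart for HK2 and ALDOC. Its HK2 level was 6.28 CPM beside 26.0 to 28.3 in the other lung libraries. Its ALDOC level was 5.34 CPM beside 0 to 0.141, so the lung mean of ALDOC comes almost wholly from this library. Lung library 3 stood apart for MPC1, at 169.7 CPM beside 59.8 to 69.1, and for OGDH, at 34.1 CPM beside 11.4 to 12.5. Lung library 4 stood apart for SLC16A1, at 242 CPM beside 153 to 162. Bone marrow library 1 stood apart for IDH3A, at 26.9 CPM beside 30.6 to 31.1.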

How the results depend on the processing

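The count of all genes called for bone marrow versus lung (1) became 3 with at least 5 CPM required in at least 4 libraries, 468 with DESeq2, 6 with limma voom, 3 with offsets for GC content and length, 0 with the replicate block, 0 with bone marrow library 1 and lung library 3 both left out, and 0 whichever metastasis library was left out. The members called became 3 with DESeq2 (PKM, IDH1 and CS) and stayed at 0 elsewhere. Leaving out 1 library moved the members at an unadjusted p under 0.05 between 8 (without bone marrow library 3) and 17 (without bone marrow library 1), and the members without overlap between 7 and 17, the top again without bone marrow library 1. With bone marrow library 1 and lung library 3 both left out, a choice made after seeing the data, 20 members did not overlap. PKM, IDH1, GAPDH, CS, ENO1 and ALDOA were at an unadjusted p under 0.05 in all fits run.

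The log2 fold change of bone marrow minus lung kept its sign for 28 of 39 members in every other fit that included them and changed it in at least 1 of 18 for 11. These were MPC1 (in 11 fits), PDHB (8), TALDO1 (6), HK1 (5), PDHA1 (5), LDHA (4), PFKM (3), ENO2 (3), DLAT (3), IDH3A (2) and HK2 (1). PDHB ran from -0.17 to 0.41 and LDHA from -0.12 to 0.36, so their direction is not determined. MPC1 was -0.0002 with median-ratio scaling and with DESeq2, -0.0658 by library size alone, -0.0809 under the stricter filter, -0.0170 on the 8 metastasis libraries alone, -0.0238 with the GC and length offsets, and -0.2000 to 0.5008 leaving out 1 library. TALDO1 was -0.0610 by library size alone, -0.0734 under the stricter filter, -0.0225 with the replicate block, -0.1396 with the GC and length offsets, and -0.1470 to 0.1771 leaving out 1 library. The cause was not tested.

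Scaling by library size alone gave 29 of 39 members higher in the bone marrow, and the GC and length offsets, also chosen after seeing the data, gave 24 of 39, where the median of all genes moved to -0.15 and that of the members was 0.25; 10 members were then at an unadjusted p under 0.05 for higher bone marrow and SUCLG1 for higher lung. Bone marrow and lung share replicate numbers in the labels, but deviations of same-numbered libraries correlated at -0.002, 0.026, -0.035 and -0.036, so the numbers were not taken to pair samples; the replicate block gave 10 members at an unadjusted p under 0.05. With at most 20 counts for SLC2A1, 38 for SLC16A3, 9 for PC and 0 for PFKL in any library, counting error is large for these genes at this depth; why they were low was not tested.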
